A study of Mus musculus with 12 samples.

Results

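The mRNA decay regulators of the ZFP36, Regnase and Roquin families were taken as 7 genes, matched by symbol to their Ensembl identifiers, out of the 37991 genes of the count table. All 7 were detected in every one of the 12 samples, with at least 865 counts, and all 7 were tested. RNA came from splenic resting B cells of mice aged 8 weeks, either resting or activated for 3 h by anti-IgM+IL4. Control mice carried the CD23-iCre transgene alone (Cre-only). Runx1 c-k/o mice (CD23iCre/Runx1 ck/o) carried the same transgene together with Runx1 alleles whose exon 4 is flanked by LoxP sites, so both genotypes expressed Cre. The CD23 promoter drives Cre from the transitional B cell stage onward, and Runx1 is therefore intact in earlier cells and in other lineages. Each of the 4 groups held 3 biological replicates.

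These genes encode proteins that bind the 3′ ends of short-lived mRNAs and set how fast they are destroyed. ZFP36 (tristetraprolin) and its relatives ZFP36L1 and ZFP36L2 bind AU-rich elements through paired CCCH zinc fingers and recruit the CCR4-NOT complex, which removes the poly(A) tail. Regnase-1 (Zc3h12a) is an endoribonuclease that cuts stem-loops in cytokine mRNAs, Regnase-4 (Zc3h12d) is a related protein of lymphocytes, and Roquin-1 (Rc3h1) and Roquin-2 (Rc3h2) bind stem-loops through a ROQ domain and also recruit CCR4-NOT. In developing lymphocytes, ZFP36L1 and ZFP36L2 are known to maintain quiescence, and the protease MALT1 cleaves Regnase-1 and Roquin after antigen receptor engagement.

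In the mm9 annotation, Zfp36 (ENSMUSG00000044786) lies on the minus strand at chr7:29161803-29164274, Zfp36l1 (ENSMUSG00000021127) on the minus strand at chr12:81208747-81214000 and Zfp36l2 (ENSMUSG00000045817) on the minus strand at chr17:84583271-84587287. Zc3h12a (ENSMUSG00000042677) lies on the minus strand at chr4:124795667-124805084, and Zc3h12d (ENSMUSG00000039981) on the plus strand at chr10:7552268-7590195. Rc3h1 (ENSMUSG00000040423) lies on the plus strand at chr1:162836549-162905109, and Rc3h2 (ENSMUSG00000075376) on the minus strand at chr2:37225589-37278423. All are protein-coding genes. The exons of Zfp36l1 overlap those of the antisense lincRNA Gm17591 over 1672 bases. Gm17591 had 33 to 163 counts, or 0.635% to 2.04% of those of Zfp36l1 in the same library. The strand setting of the counting is not given, so these counts do not show how reads in the overlap were assigned. The exons of the other members overlap no other annotated gene.

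Promoters were read from RefSeq (GRCm38.p6), which matched 6 of the 7 members, as the 250 bases before the transcription start. Zfp36l2 had no entry, so its promoter was not searched. Zfp36 is shown because it was the highest member at rest, and Zc3h12a because it fell on activation together with Zfp36. Zfp36l1 is shown because it alone of the 6 members searched held a match to a RUNX core. Capitals mark every match, on either strand, to TGTGGT or its variant TGCGGT (RUNX), TGACGTCA (CRE), TGANTCA (AP-1), GCGNGGGCG (EGR), the CArG box of SRF and the NF-kB site.
Zfp36 (GRCm38.p6, chr7:28379229-28379478, minus strand): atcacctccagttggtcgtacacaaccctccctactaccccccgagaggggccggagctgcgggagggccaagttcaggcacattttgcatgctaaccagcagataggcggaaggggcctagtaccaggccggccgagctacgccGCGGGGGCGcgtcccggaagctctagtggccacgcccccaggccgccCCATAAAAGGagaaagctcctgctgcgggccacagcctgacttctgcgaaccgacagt
Zfp36l1 (GRCm38.p6, chr12:80113014-80113263, minus strand): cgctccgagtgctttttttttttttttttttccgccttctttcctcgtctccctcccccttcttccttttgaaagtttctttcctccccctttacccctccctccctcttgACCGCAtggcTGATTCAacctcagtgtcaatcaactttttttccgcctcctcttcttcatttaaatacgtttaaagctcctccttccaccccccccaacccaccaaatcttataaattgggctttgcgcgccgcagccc
Zc3h12a (GRCm38.p6, chr4:125127882-125128131, minus strand): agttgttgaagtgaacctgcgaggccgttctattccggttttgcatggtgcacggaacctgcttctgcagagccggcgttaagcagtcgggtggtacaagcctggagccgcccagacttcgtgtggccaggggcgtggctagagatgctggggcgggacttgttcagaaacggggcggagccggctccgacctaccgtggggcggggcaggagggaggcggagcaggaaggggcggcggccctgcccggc

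The RUNX core variant in Zfp36l1 was read on the opposite strand (ACCGCA at -139 to -134 from the start), and 5.10% of the 32851 promoters hold this variant in a window of the same length. TGTGGT, which 14.05% of promoters hold, was found in 0 of the 6 members searched, which do not include Zfp36l2. Zfp36 held an EGR match (GCGGGGGCG at -105 to -97, a motif in 4.70% of promoters) and a CArG box (CCATAAAAGG at -58 to -49, in 1.47%). AP-1 matches were found in Zfp36l1 (TGATTCA at -129 to -123) and in Rc3h1 (TGACTCA at -133 to -127), and 6.75% of promoters hold this motif. The Zc3h12a window held no match to any of the motifs searched. These matches describe letters in the window and not binding. The authors measured RUNX1 binding in wild-type resting B cells by ChIP-seq, and those data were not used here.

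Counts per library totalled 14442251 to 23641552, and normalized CPM is the count relative to the TMM-scaled library size. The 6 B cell markers examined summed to 7201 to 7921 CPM at rest and to 1495 to 1948 CPM at 3 h, so the markers that define B cells were present at both times. T cell markers summed to at most 5.59 CPM and neutrophil markers to at most 4.39 CPM. The 4 erythroid markers summed to 36.1 to 253 CPM in resting Cre-only samples and 246 to 410 CPM in the resting knockout samples, and to 12.3 to 203 CPM over all 3-h samples. The 6 monocyte and macrophage markers summed to 213 to 423 CPM at rest and 17.7 to 47.7 CPM at 3 h. Among the replicates, Runx1 c-k/o resting replicate 2 and Runx1 c-k/o 3-h replicate 1 stood apart, since the 4 pairs that include one of them differed by a chi-square per gene of 28.9 to 76.3 against 2.86 to 12.8 in the other 8 pairs. The Runx1 gene itself had 81.8 to 86.7 CPM in resting Cre-only cells and 95.7 to 103 CPM in resting Runx1 c-k/o cells, but these counts cover all its exons and do not check the deletion of exon 4.

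**Figure D1:**
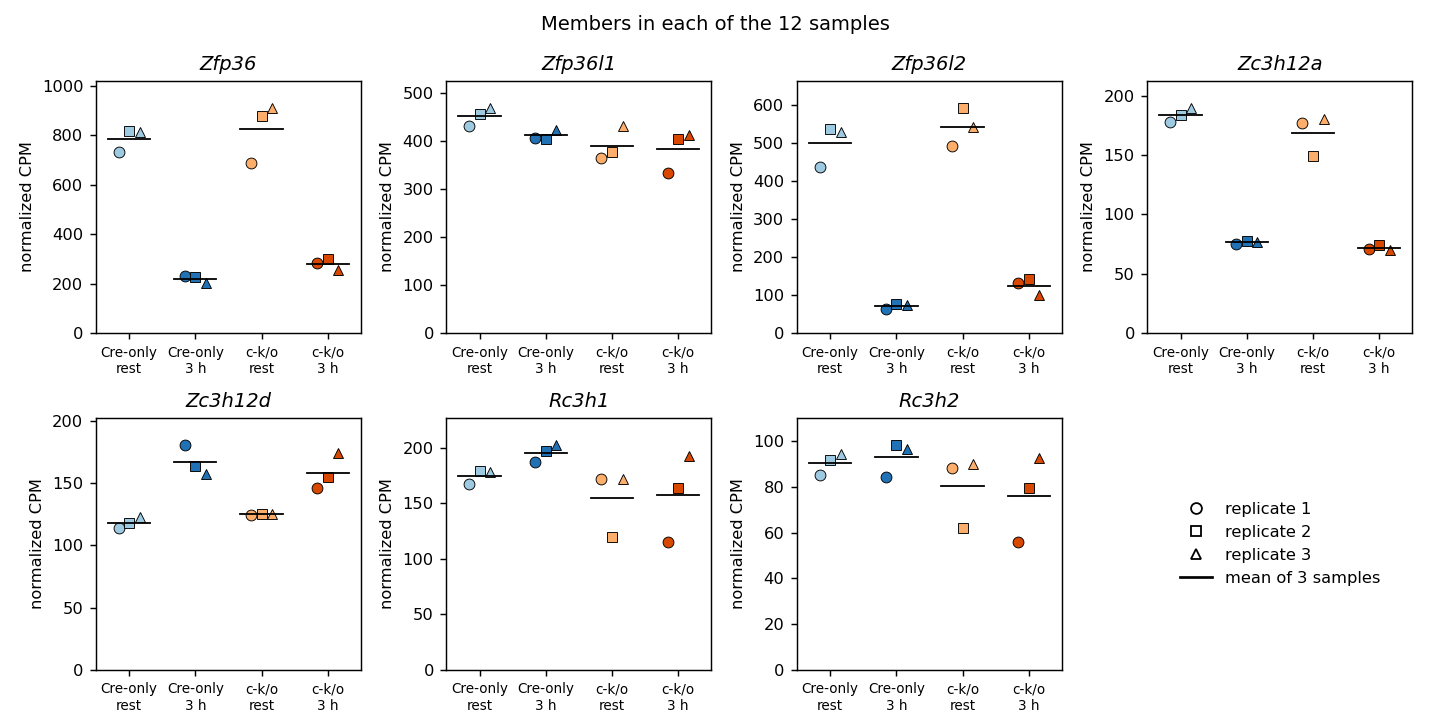
Normalized CPM (linear axis from 0) of each of the 7 members in each of the 12 samples, with the symbol giving the replicate number and the line the mean of 3 samples. Zfp36, Zfp36l2 and Zc3h12a were lower in all 3-h samples than in any resting sample of either genotype, Zc3h12d was higher, and the c-k/o 3-h samples of Zfp36l2 lie between 100 and 141 CPM, above the Cre-only 3-h samples at 64.4 to 77.2 CPM.

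To ask how the members respond to antigen receptor signaling, 3-h cells were compared with resting cells in each genotype. Zfp36l2, Zfp36 and Zc3h12a fell, Zc3h12d rose, and Zfp36l1, Rc3h1 and Rc3h2 did not pass the test, and this was so in both genotypes. These 4 of 7 members called in Cre-only cells (edgeR quasi-likelihood F test, Benjamini-Hochberg adjusted p under 0.05) compare with 75% of the 13538 genes tested, 38.6% higher and 36.4% lower, and with 74.3% for the 4 called in Runx1 c-k/o cells, so the share of members that changed did not exceed that of all genes. The median log2 fold change of the 7 members was -0.14 in Cre-only cells, beside 0.03 over all tested genes, and -0.08 in the knockout, beside 0.0046. Spike-in counts were not analysed here, and every change is relative to the library. In these bulk samples fewer cells that express a gene and less RNA per cell cannot be told apart.

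Zfp36l2 had the largest change of the members. Its normalized CPM in Cre-only cells was 437, 538 and 528 at rest and 64.4, 77.2 and 74.8 at 3 h. The Runx1 c-k/o samples had 491, 592 and 542 CPM at rest and 131, 141 and 100.3 CPM at 3 h. The resting and 3-h samples did not overlap in either genotype, as was the case for 84.4% of all genes in Cre-only cells and 72.8% in the knockout. Zfp36l2 mRNA fell by 2.80 on the log2 scale (SE 0.148, 6.95-fold, adjusted p = 2.0e-08) in Cre-only cells and by 2.12 (SE 0.144, 4.36-fold, adjusted p = 1.0e-07) in Runx1 c-k/o cells. At 3 h, 14.4% ± 1.36 (SD, n = 3) of the resting mean was left in Cre-only cells and 22.9% ± 3.94 (SD, n = 3) in Runx1 c-k/o cells, with ranges of 12.8% to 15.4% and 18.5% to 26.1%.

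Zfp36, the founding member of its family and an immediate early gene in many cell types, was the highest member at rest. Its normalized CPM was 731, 816 and 812 in resting Cre-only cells and 232, 225 and 204 at 3 h. The Runx1 c-k/o values were 687, 877 and 910.1 CPM at rest and 282, 299 and 256 CPM at 3 h. Every 3-h sample lay below every resting sample, at a single time point that does not show what happened before 3 h. The fall was 3.57-fold (log2 -1.83, SE 0.122, adjusted p = 7.3e-08) in Cre-only cells and 2.96-fold (log2 -1.56, SE 0.121, adjusted p = 2.7e-07) in Runx1 c-k/o cells.

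Zfp36l1 differed from its relatives in that it did not pass the activation test. It had 432, 457 and 469 CPM before and 407, 403 and 424 CPM after activation of Cre-only cells, and 364, 377 and 430.5 CPM at rest and 334, 405 and 413 CPM at 3 h in Runx1 c-k/o cells. The Cre-only groups did not overlap, and the Runx1 c-k/o groups overlapped. The log2 fold change was -0.14 (95% interval -0.36 to 0.09, adjusted p = 0.245) in Cre-only cells and -0.02 (-0.25 to 0.20, adjusted p = 0.851) in Runx1 c-k/o cells. A small fall in Cre-only cells was called by 4 of 16 alternatives, among them the fit without the 2 libraries that stood apart (log2 -0.18, adjusted p = 0.0097). With 1 RUVs factor, which cannot be told apart from activation, the value was 0.16 in edgeR and 0.051 in DESeq2, neither of them called.

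The Regnase members moved in opposite directions. Zc3h12a fell from 178, 183 and 190 CPM in resting Cre-only cells to 75.2, 77.7 and 76.3 CPM at 3 h, and from 177, 149 and 180 CPM to 70.5, 74.2 and 69.6 CPM in Runx1 c-k/o cells. Its fall was 2.40-fold (log2 -1.26, SE 0.085, adjusted p = 7.4e-08) in Cre-only cells and 2.36-fold (log2 -1.24, SE 0.0851, adjusted p = 1.1e-07) in Runx1 c-k/o cells, and 41.6% and 42.3% of the resting mean remained. Zc3h12d rose from 114, 118 and 123 CPM to 181, 164 and 157 CPM in Cre-only cells, and from 125, 125 and 125 CPM to 146, 155 and 175 CPM in Runx1 c-k/o cells. The rise was 1.41-fold (log2 0.50, SE 0.0864, adjusted p = 0.00019) and 1.27-fold (log2 0.34, SE 0.0864, adjusted p = 0.0031), with no overlap between rest and 3 h in either genotype. The 3 genes that fell and the 1 that rose kept their calls in both genotypes under all 16 alternatives run on each.

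The sum of the 6 monocyte and macrophage markers was also lower after activation, at 248 to 303 CPM in resting and 17.7 to 24.3 CPM in activated Cre-only samples, and at 213 to 423 and 19.4 to 47.7 CPM in the Runx1 c-k/o samples. Csf1r held most of that sum, with a mean of 185 CPM at rest and 6.75 CPM at 3 h in Cre-only cells, while Lyz2 went from 22.3 to 3.86 CPM and Cd14 from 4.17 to 0.292 CPM. All 6 markers were detected and none was at 0 in the group means. Their part in the falls of Zfp36, Zfp36l2 and Zc3h12a was not tested. The sum of the 6 B cell markers was lower at 3 h. The 5 follicular and marginal zone markers had higher sums, 2165 to 2490 CPM in resting Cre-only samples and 3392 to 3734 CPM at 3 h. They did not move together. In the Cre-only means Cr2 rose from 945 to 2021 CPM and S1pr3 from 22.7 to 169 CPM, while Cd1d1 fell from 68.7 to 2.33 CPM. Fcer2a (1097 and 1116 CPM) and Dtx1 (211 and 210 CPM) were close at both times.

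**Figure D2:**
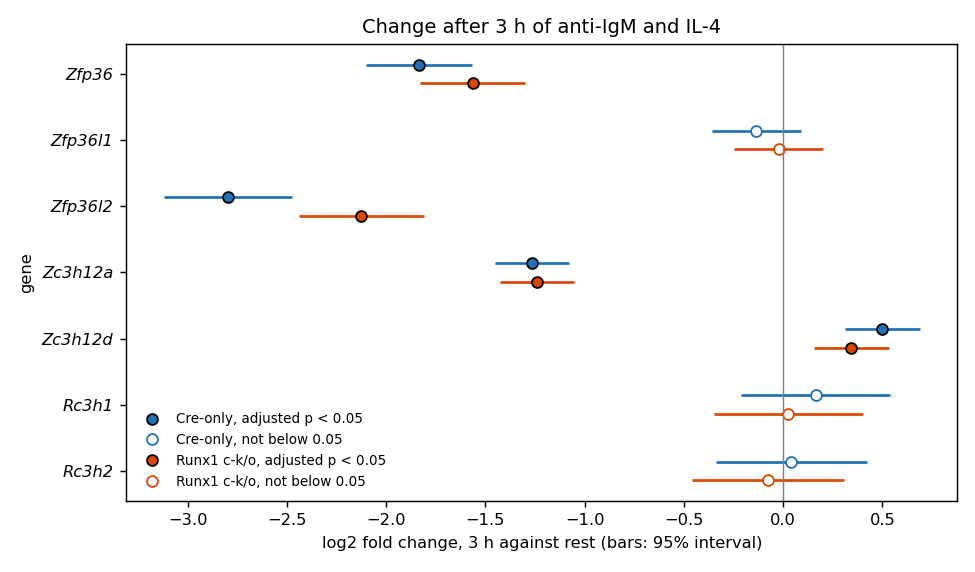
Log2 fold change of the 7 members at 3 h against rest in Cre-only (blue) and Runx1 c-k/o (orange) cells, with bars for the 95% interval of the edgeR fit, filled points for adjusted p below 0.05 and open points for the others. Zfp36l2 lies at -2.80 and -2.12 and Zc3h12d at 0.50 and 0.34, and the intervals of Zfp36l1, Rc3h1 and Rc3h2 include 0.

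The Roquin genes did not pass the activation test in either genotype. Rc3h1 had 167, 179 and 178 CPM before and 187, 198 and 203 CPM after activation of Cre-only cells, and 172, 119 and 172 CPM at rest and 115, 164 and 193 CPM at 3 h in Runx1 c-k/o cells. Rc3h2 had 85.2, 91.9 and 94.4 CPM before and 84.5, 98.4 and 96.4 CPM after activation of Cre-only cells, and 88.3, 62.2 and 90.2 CPM at rest and 55.7, 79.7 and 92.5 CPM at 3 h in Runx1 c-k/o cells. Both genes were lowest in the same libraries, the 2 that stood apart. The log2 fold change of Rc3h1 was 0.16 (95% interval -0.21 to 0.54, adjusted p = 0.401) in Cre-only cells and 0.03 (-0.35 to 0.40, adjusted p = 0.899) in Runx1 c-k/o cells. For Rc3h2 it was 0.04 (-0.34 to 0.42, adjusted p = 0.842) and -0.08 (-0.46 to 0.30, adjusted p = 0.700).

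Rc3h1 and Rc3h2 have the longest exons of the members, 11308 and 11688 bases in union, and their values moved with a length pattern of the libraries. In Runx1 c-k/o resting replicate 2, the log2 values of Rc3h1 and Rc3h2 relative to the other samples of the group were -0.52 and -0.52, while the median of the 1240 genes with at least 8000 exon bases was -0.24 and that of the 3483 genes under 2000 bases 0.29. The values in Runx1 c-k/o 3-h replicate 1 were -0.62 and -0.62 for Rc3h1 and Rc3h2, -0.52 for the long genes and 0.30 for the short genes. Zfp36l2 was at 0.20 and 0.14 in these 2 libraries, and was not low there. With 1 RUVs factor of unwanted variation in edgeR, Rc3h1 was called higher on activation in Cre-only (log2 0.92, adjusted p = 0.00011) and Runx1 c-k/o cells (0.79, adjusted p = 0.00047), and so was Rc3h2 (0.80, adjusted p = 0.00080 and 0.68, adjusted p = 0.0028). That factor itself did not overlap between resting libraries (7.56 to 36.4) and 3-h libraries (-70.0 to -13.2), so it cannot be told apart from activation.

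To compare the members with each other, levels were scaled to the union of annotated exons as RPKM. For Zfp36l1 this length includes the bases shared with Gm17591, where the assignment of reads is not known, so its rank and share carry that limit. In resting Cre-only cells Zfp36 stood at 439 ± 26.5 RPKM (SD, n = 3), above 99.2% of the 13514 tested genes with an annotated length. Zfp36l1 at 152 ± 6.38 and Zfp36l2 at 142 ± 15.7 RPKM followed and their ranges overlapped. Below them were Zc3h12a at 63.7 ± 2.07, Zc3h12d at 28.9 ± 1.07, Rc3h1 at 15.5 ± 0.563 and Rc3h2 at 7.74 ± 0.407 RPKM, each without overlap with its neighbour. Rc3h2 was close to the median of all these genes, 6.13 RPKM, and above 55.6% of them. The order in resting Runx1 c-k/o cells was the same except that Zfp36l2 (153 ± 14.3 RPKM) and Zfp36l1 (131 ± 11.9 RPKM), which again overlapped, changed places.

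The order was different at 3 h. In Cre-only cells Zfp36l1 was first at 138 ± 3.64 RPKM (SD, n = 3), followed by Zfp36 at 123 ± 8.38, Zc3h12d at 40.9 ± 3.00, Zc3h12a at 26.5 ± 0.426, Zfp36l2 at 20.4 ± 1.93, Rc3h1 at 17.3 ± 0.712 and Rc3h2 at 7.97 ± 0.646 RPKM, with no overlap between neighbours. In Runx1 c-k/o cells Zfp36 stayed first at 156 ± 12.2 RPKM and Zfp36l1 followed at 129 ± 14.5 RPKM. Zc3h12d at 38.7 ± 3.55 and Zfp36l2 at 35.2 ± 6.05 RPKM overlapped there, and Zc3h12a at 24.8 ± 0.857, Rc3h1 at 13.9 ± 3.45 and Rc3h2 at 6.50 ± 1.60 RPKM came last.

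**Figure D3:**
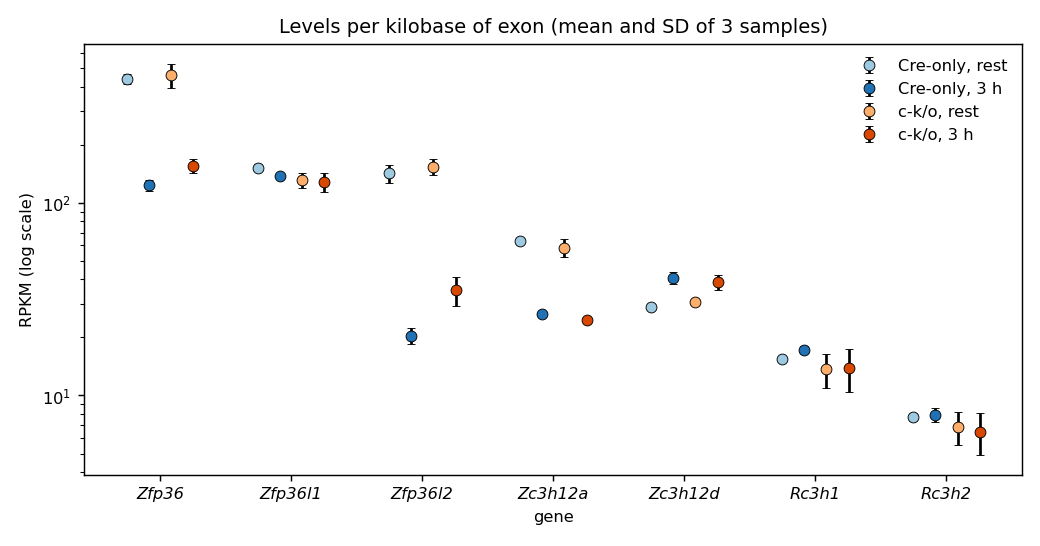
RPKM (log axis) of the 7 members in the 4 groups, with points for the mean and bars for the SD of 3 samples. Zfp36 falls from 439 to 123 RPKM and Zfp36l2 from 142 to 20.4 RPKM in Cre-only cells, whereas the group means of Zfp36l1 lie between 129 and 152 RPKM.

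Among the members of each family, the shares of the ZFP36 and Regnase genes shifted with activation, and those of the Roquin genes stayed close. The 3 ZFP36 family genes summed to 732 ± 48.2 RPKM (SD, n = 3) at rest and 281 ± 4.00 RPKM at 3 h in Cre-only cells, and to 744 ± 87.2 and 320 ± 20.2 RPKM in Runx1 c-k/o cells. Zfp36l1 made up 20.1% to 21.4% of that sum in resting and 47.8% to 51.3% in 3-h Cre-only samples, and 16.1% to 18.9% and 36.6% to 44.7% in Runx1 c-k/o samples. Zfp36l2 dropped to 6.41% to 7.73% of the sum in 3-h Cre-only samples and to 9.18% to 12.1% in 3-h Runx1 c-k/o samples. Of the sum of the 2 Regnase members, Zc3h12a made up 68.8% ± 0.0999 in resting and 39.4% ± 1.99 in activated Cre-only cells. Zc3h12d was then the larger part of these 2. The related genes Zc3h12b and Zc3h12c are not in this sum. Zc3h12c had 45.4 CPM in resting and 205 CPM in 3-h Cre-only cells. Rc3h1 held 66.6% to 68.5% of the Roquin sum in the means of all 4 groups, including those with the libraries in which both genes were low.

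The genotypes were then compared at each time to ask which members depend on Runx1. At rest 0 of the 7 members passed the edgeR test, 0 had an unadjusted p under 0.05 and 0 were called by DESeq2, where edgeR called 1.49% of all genes. The log2 differences (Runx1 c-k/o against Cre-only) ranged from -0.21 for Zfp36l1 (95% interval -0.44 to 0.01, adjusted p = 0.486) to 0.11 for Zfp36l2 (-0.19 to 0.41, adjusted p = 0.772). Zfp36l1 was lower in all 3 Runx1 c-k/o resting samples (364 to 430.5 CPM) than in the Cre-only ones (432 to 469 CPM), and the groups of Zc3h12d did not overlap either, as in 23.7% of all genes.

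At 3 h, Zfp36l2 was the 1 member of 7 that passed, where 2.77% of all genes were called and 1.47% were called higher in Runx1 c-k/o cells. It had 131, 141 and 100.3 CPM in the Runx1 c-k/o samples against 64.4, 77.2 and 74.8 CPM in the Cre-only samples, and all 3 of the former lay above all 3 of the latter. The difference was 1.72-fold (log2 0.78, SE 0.14, 95% interval 0.48 to 1.09, adjusted p = 0.0100). Without Runx1 c-k/o 3-h replicate 1, the library that stood apart, it was 0.77 (adjusted p = 0.0113). The call was lost when only the 2 groups compared were fitted (log2 0.80, adjusted p = 0.0565) and without Cre-only 3-h replicate 1 (log2 0.71, adjusted p = 0.0691), and was kept by the 13 other alternatives. The sum of the 4 plasma cell markers also differed at 3 h, at 398 to 439 CPM in Runx1 c-k/o and 286 to 348 CPM in Cre-only samples. Xbp1 held most of it, with means of 327 CPM in Runx1 c-k/o and 241 CPM in Cre-only cells. Jchain was likewise higher in Runx1 c-k/o cells (87.6 against 64.0 CPM). Sdc1 (3.41 against 3.98 CPM) and Prdm1 (6.70 against 7.45 CPM) were lower there. The part of these markers in the difference of Zfp36l2 was not tested.

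Zfp36 was also higher in each Runx1 c-k/o 3-h sample (282, 299 and 256 CPM) than in any Cre-only 3-h sample (232, 225 and 204 CPM), a separation seen in 21.8% of all genes. The log2 difference of 0.34 (SE 0.119, 95% interval 0.08 to 0.60) did not pass in edgeR (adjusted p = 0.185), whereas DESeq2 called it (0.38, adjusted p = 0.0405), as did DESeq2 with 1 RUVs factor (0.37, adjusted p = 0.0140). The remaining 5 members had differences between -0.32 and -0.08 that did not pass. Among them the groups of Zc3h12a did not overlap either. It was lower in the Runx1 c-k/o samples (70.5, 74.2 and 69.6 CPM) than in the Cre-only samples (75.2, 77.7 and 76.3 CPM). The differences of Rc3h1 (-0.32, adjusted p = 0.378) and Rc3h2 (-0.29, adjusted p = 0.415) came down to -0.11 and -0.09 without the 2 libraries that stood apart.

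**Figure D4:**
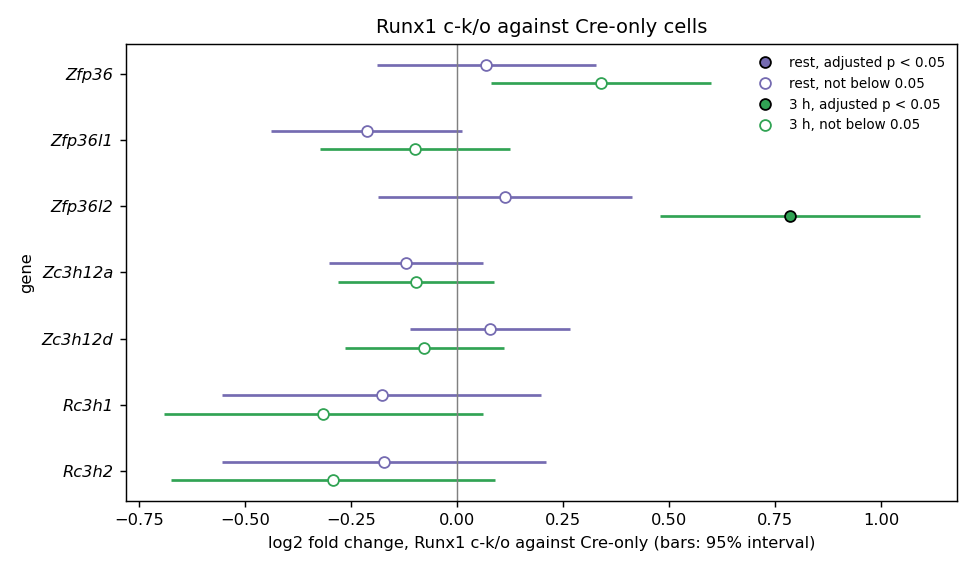
Log2 fold change of the 7 members in Runx1 c-k/o relative to Cre-only cells, at rest (purple) and at 3 h (green), with bars for the 95% interval of the edgeR fit, filled points for adjusted p below 0.05 and open points for the others. Zfp36l2 at 3 h (0.78, interval 0.48 to 1.09) is the only filled point, and the widest intervals belong to Rc3h1 and Rc3h2.

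Whether the response to activation itself differed between genotypes was tested as an interaction. None of the 7 members passed (0 of 7 in edgeR, where 0.0813% of all genes were called, and 0 of 7 in DESeq2), and Zfp36l2 alone had an unadjusted p under 0.05. The difference between its log2 changes, Runx1 c-k/o minus Cre-only, was 0.67 (SE 0.196, 95% interval 0.25 to 1.10, adjusted p = 0.518 in edgeR). The adjusted p ranged from 0.0077 to 1.0 over 21 alternatives, and the test passed in 1 of them, DESeq2 with 1 RUVs factor (0.72). The next in size was Zfp36 with 0.27 (SE 0.168, adjusted p = 0.999). Hence the difference of Zfp36l2 between genotypes at 3 h was called, while a difference between its responses was not.

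The genes whose pattern over the 12 samples lay nearest to each member, by the root mean square difference of centred log2 CPM, were the following. Nearest to Zfp36l2 was Junb, an AP-1 transcription factor gene (0.080), which went from 1082 to 163 CPM in Cre-only and from 1199 to 291 CPM in Runx1 c-k/o cells, followed by Oas1c (0.143) and Atf3 (0.153). Zfp36 was nearest to Ublcp1 (0.119), St3gal3 (0.119) and Unc93b1 (0.12), and Zc3h12a to Dhx57 (0.0788), Rp2h (0.0799) and Epc2 (0.0829). For Zfp36l1 they were Ccdc66 (0.0621), Inpp5d (0.0812) and AU040320 (0.0818), and for Zc3h12d Atp6v0a2 (0.0594), Man1b1 (0.0627) and Edc4 (0.0644). Near Rc3h1 were BC018507 (0.0548) and Zbtb33 (0.0629), and nearest to Rc3h2 were Pbrm1 (0.0504), Pag1 (0.0521) and 2210018M11Rik (0.0540). Of all pairs of members Rc3h1 and Rc3h2 were the most alike (0.0665), with 6 genes nearer to Rc3h1 than Rc3h2 was, whereas Zfp36l1 and Zfp36l2 were 1.25 apart. These values are over samples that share the same libraries and activation contrast, and are a description.

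Relatives of the Regnase members (Zc3h12b, Zc3h12c, N4bp1, Khnyn) and Zfp36l3 were examined next. The same list held the MEX3 genes, which belong to none of the member families. Of 8 tested, 5 rose and 2 fell on activation in Cre-only cells, with a median log2 fold change of 0.87, beside 75% called (38.6% higher, 36.4% lower) and a median of 0.03 among all tested genes. Zc3h12c, which encodes Regnase-3, rose from 45.4 ± 6.21 to 205 ± 3.03 CPM (SD, n = 3; log2 2.17, adjusted p = 3.3e-06), and in Runx1 c-k/o cells by 1.58 (adjusted p = 4.6e-05). N4bp1, which encodes a related nuclease, rose by 1.02 in Cre-only cells and by 0.65 in Runx1 c-k/o cells, Mex3a by 1.62, Mex3d by 1.49 and Mex3c by 0.71 in Cre-only cells, while Khnyn (-0.78) and Mex3b (-1.11) fell. With 1 RUVs factor in edgeR, which cannot be told apart from activation, Khnyn (-0.10, adjusted p = 0.475) and Mex3b (-0.74, adjusted p = 0.109) no longer passed. Zc3h12b (0.28, adjusted p = 0.339) did not pass, and Zfp36l3 had 0 counts in both Cre-only groups and was not tested. None of the 8 passed a test between genotypes in edgeR.

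The counts of the decay machinery are read against the 75% of all tested genes called in Cre-only cells, 38.6% higher and 36.4% lower. In the CCR4-NOT list, which holds its adaptors too, 9 of 17 genes rose and 5 fell on activation in Cre-only cells (median log2 0.23). The deadenylase gene Cnot8 (1.61) and the subunit gene Cnot9 (1.03) rose, and Tob1 (-2.12), an antiproliferative adaptor, and the GW182 gene Tnrc6b (-1.95) fell. Among 8 genes for PAN2-PAN3, PARN and poly(A)-binding proteins 4 rose and 3 fell, with Pabpc4 (1.79) and Paip1 (0.99) higher and Paip2 (-1.05) and Pan3 (-0.81) lower. Decapping and 5′-to-3′ decay genes rose in 14 of 20 cases and fell in 1 (median 0.44), with Lsm2 (2.09) and Lsm1 (1.20) higher and the helicase gene Ddx6 (-0.62) lower. With 1 RUVs factor in edgeR, which cannot be told apart from activation, the values of Tnrc6b (-0.17) and Ddx6 (0.01) no longer passed.

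The exosome and Ski complex, which degrade RNA from the 3′ end, had 12 of 14 genes higher and 0 lower in Cre-only cells, and in Runx1 c-k/o cells 12 rose and 1 fell, with medians of 1.34 and 1.24 beside 0.03 and 0.0046 for all genes. Dis3, a catalytic subunit gene, rose from 38.2 ± 1.90 to 167 ± 4.62 CPM (SD, n = 3, log2 2.12, adjusted p = 1.6e-08) and the Ski gene Ttc37 by 1.43. Its relative Dis3l (-0.17) and the Ski gene Skiv2l (-0.06) did not pass in Cre-only cells. Dis3l was the 1 gene that fell in Runx1 c-k/o cells (-0.26). In nonsense-mediated decay, 5 of 10 genes rose and 2 fell, where 75% of all genes were called, with Upf1 (1.11) and Smg5 (0.77) higher and Upf3b (-0.82) and Smg9 (-0.52) lower. Of 14 other AU-rich element binding proteins and related regulators 10 rose and 1 fell (median 0.53), with Khsrp (1.01) and Hnrnpab higher, the latter from 141 ± 4.04 to 489 ± 22.5 CPM (SD, n = 3), and Celf2 (-1.23) lower.

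**Figure D5:**
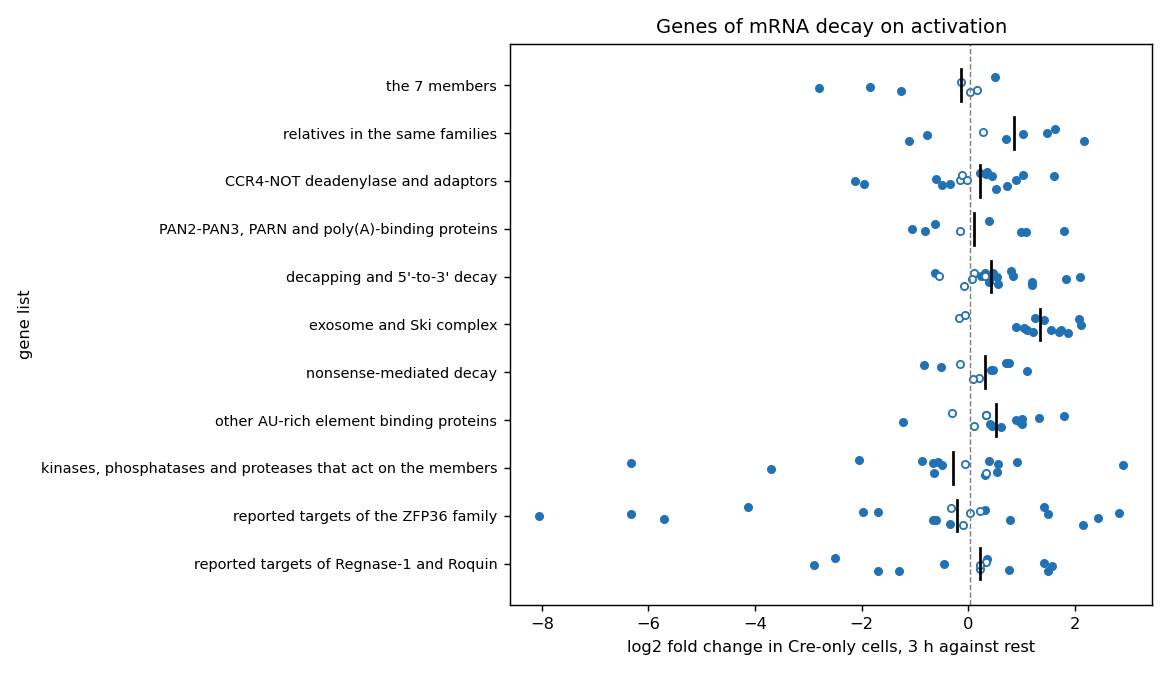
Log2 fold change at 3 h against rest in Cre-only cells for the 7 members and for each list of decay genes, with 1 point per tested gene (filled for adjusted p below 0.05), a black bar for the list median and a dashed line for the median of all 13538 tested genes. The exosome and Ski complex list has the highest median, 1.34, beside -0.14 for the members.

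Genes for enzymes and partners that act on the member proteins were higher in 6 of 16 cases and lower in 8 in Cre-only cells, beside 38.6% and 36.4% of all genes, and the counts of the target lists that follow have the same background. Mapkapk3, a kinase of the p38 pathway that phosphorylates ZFP36, rose from 23.4 ± 0.270 to 176 ± 8.36 CPM (SD, n = 3; log2 2.91, adjusted p = 9.4e-08) and the 14-3-3 gene Ywhab by 0.91, while Mapk14, the p38 alpha gene itself (-2.04), fell. Among 20 tested genes reported as targets of the ZFP36 family 7 rose and 9 fell (median -0.21), with the cyclin gene Ccnd2 (2.83) and Vegfa (2.45) higher and E2f2 (-4.13) and Ccnd3 (-1.96) lower. Of 13 tested genes reported as targets of Regnase-1 and Roquin 5 rose and 5 fell, with Tfrc (1.58) and Nfkbiz (0.77) higher and Ccnd1 (-2.90) and Ctla4 (-2.51) lower.

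Between genotypes, 0 genes of these lists passed in edgeR at rest or in the interaction, and 2 passed at 3 h, where 2.77% of all genes were called. Il10, a reported ZFP36 target, was at 10.5 ± 0.915 CPM (SD, n = 3) in Runx1 c-k/o and 3.48 ± 0.85 CPM in Cre-only 3-h cells (log2 1.61, SE 0.293, adjusted p = 0.0114). The call of Il10 was lost without Cre-only 3-h replicate 1 (1.42, adjusted p = 0.0768) and without Cre-only 3-h replicate 2 (1.61, adjusted p = 0.0557). Arid5a, whose protein is known to protect mRNAs from Regnase-1, was at 121 ± 4.88 CPM in Runx1 c-k/o and 157 ± 5.22 CPM in Cre-only 3-h cells (log2 -0.38, SE 0.083, adjusted p = 0.0301). That call was lost in 5 of the 6 fits that left out 1 sample, with adjusted p from 0.0307 to 0.133 over the 6, and in 4 other alternatives. The median log2 difference at 3 h was 0.30 over the 20 tested ZFP36 family targets, with 1 called, and 0.07 over the 13 tested Regnase-1 and Roquin targets, with 0 called, beside 0.0073 over all tested genes.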

How the data were processed

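RNA-seq was analysed for B cells of both genotypes at 0 h and 3 h, in 12 samples. The authors added ERCC spike-in RNA, made stranded poly(A) libraries from 500 ng of RNA, aligned paired reads to mm9 with TopHat2 2.0.11 and ran featureCounts with the Ensembl 66 gene set (CASAVA 1.8.4 is also in the submitters' processing notes). The deposited values are raw counts per gene, with 0 spike-in rows. The strand setting and the handling of reads with several alignments are not given in the sources used here. Gene names, positions and lengths came from GENCODE M1 (mm9), which named 37205 of 37991 identifiers.

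Genes were filtered with filterByExpr (minimum 10 counts), leaving 13538, TMM-normalized and fitted with edgeR 4.0.16 (robust quasi-likelihood F test, 1 term per group, R 4.3.3), and p-values were adjusted by Benjamini-Hochberg over all tested genes with a threshold of 0.05. Tables were made with Python 3.11.15. The scripts were tested on simulated data. RPKM is normalized CPM per kilobase of exon union. An exact permutation test over 3 against 3 samples reaches p = 0.1 at the lowest. The floor of 3 counts was 0.127 to 0.208 CPM, for counting error only. The members and lists were chosen with earlier results of these data known. Named genes were the 7 members, all relatives and MEX3 genes, list genes called between genotypes, and the 3 genes nearest to each member. From each other list, up to 2 rising and 2 falling genes with the smallest adjusted p on activation in Cre-only cells were also named. Some genes that this rule names are not reported here. The authors' analysis used DESeq2 with RUV-seq factors. Here RUVs was computed from its published definition over all tested genes.

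Alternatives were DESeq2's size factors, no filter, DESeq2 1.42.0 with its Wald test, 1 RUVs factor, at least 10 counts in every sample, a replicate block, only the 2 groups compared, leaving out each sample, and, for RPKM, the longest transcript as length. Leaving out the 2 libraries that stood apart was chosen after seeing the data. In Cre-only cells, resting and 3-h samples of one number deviated together (r = 0.275, 0.176 and 0.144), but the labels do not state that they are pairs. The main fit had no term for the replicate number and is unpaired. Pairing by number entered only in the replicate block alternatives. In Runx1 c-k/o cells r was -0.254, -0.264 and 0.254, and between genotypes it lay between -0.066 and 0.068. The 2 Runx1 c-k/o libraries that stood apart had r = 0.477 with each other under different numbers. These values therefore cannot show whether Runx1 c-k/o samples of one number are pairs.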

Additional observations from a re-analysis of the deposited data

How the results depend on the processing

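The calls on activation of Zfp36, Zfp36l2, Zc3h12a and Zc3h12d kept their direction and side of the threshold in both genotypes under every alternative. The replicate block, overall or within each genotype, changed no call of a member (Zfp36l2 at 3 h 0.78, adjusted p = 0.0111), and changed those of the named list genes only for Arid5a (-0.38, adjusted p = 0.0546) where it was fitted. Within each genotype it left 4 genes called in the interaction instead of 11. Of the values of named list genes 649 stayed as reported, 18 lost and 2 gained the call and 1 changed sign (Ddx6, 0.013 with 1 RUVs factor in edgeR).

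On activation in Cre-only cells Zfp36l1 was -0.30 with at least 10 counts in every sample, -0.22 with DESeq2, -0.21 with only 2 groups and -0.18 without the 2 libraries that stood apart (all called), and 0.16 and 0.051 with 1 RUVs factor in edgeR and DESeq2. Rc3h2 was -0.043 with DESeq2's size factors and with DESeq2, -0.12 with at least 10 counts, -0.030 with only 2 groups and -0.0060 without those 2 libraries, and 0.80 and 0.69 with the factor, beside 0.92 and 0.81 for Rc3h1. In Runx1 c-k/o cells Zfp36l1 was 0.27 and 0.21 with the factor and 0.017 without the 2 libraries. Rc3h1 was -0.021 with DESeq2's size factors and with DESeq2, -0.0055 without a filter, -0.086 with at least 10 counts, and 0.79 and 0.72 with the factor, and Rc3h2 0.68 and 0.61. At least 10 counts in every sample moved the median over all genes by -0.16 (Cre-only) and -0.10 (Runx1 c-k/o), and DESeq2 with the factor by -0.13 in Cre-only cells. The cause of these shifts was not tested.

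Between genotypes at 3 h, Zfp36 was 0.38 in DESeq2 and 0.37 with the factor, Zfp36l2 0.80 with only 2 groups, and Zfp36l1 0.014 without the 2 libraries. In the interaction Zfp36l2 was 0.72 in DESeq2 with the factor and Zc3h12a -0.030 without the 2 libraries. Genes called at rest were 202 in edgeR, 378 in DESeq2, 509 and 596 with the factor in edgeR and DESeq2 and 598 without the 2 libraries. At 3 h they were 375, 707, 1059, 1285 and 914, and 158 with only 2 groups. In the interaction they were 11, 79, 134, 251 and 187.

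With 1 sample left out, calls were 81 to 140 at rest, 180 to 617 at 3 h and 4 to 31 in the interaction. Activation in Runx1 c-k/o cells gave -0.070 to 0.056 for Zfp36l1, -0.14 to 0.19 for Rc3h1 and -0.24 to 0.084 for Rc3h2. Genotype differences were -0.0072 to 0.19 for Zfp36 at rest, and -0.15 to 0.014 for Zfp36l1 and 0.68 to 0.92 for Zfp36l2 at 3 h. In the interaction Zc3h12a gave -0.056 to 0.073, Rc3h1 -0.31 to 0.073 and Rc3h2 -0.29 to 0.094.

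The order of the levels was the same in all 4 groups with either alternative. With the longest transcript as length, Zc3h12a was at 66.6 and 27.7 RPKM at rest and at 3 h in Cre-only cells and at 25.9 RPKM in Runx1 c-k/o cells at 3 h, and Rc3h2 at 10.1 and 10.4 RPKM at rest and at 3 h (Cre-only) and 8.97 and 8.49 RPKM (Runx1 c-k/o). With DESeq2's size factors Zfp36l1 was at 133 and Zc3h12a at 25.6 RPKM in 3-h Cre-only and Zc3h12d at 31.1 RPKM in resting Runx1 c-k/o cells. Every member had at least 865 counts in each sample, above the floor of 3 counts.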
